A study of Mus musculus with 22 samples.

Results

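Hearts of mice examined 1 day after nano-sized titanium dioxide (nano-TiO2) had been instilled into the trachea were compared with hearts of mice that had received the carrier liquid alone. The arrays were chosen by their labels, which give a dose of 162 µg and day 1 for 5 nano-TiO2 hearts and day 1 for 5 control hearts, so that 10 of the 22 arrays of the series entered the comparison. No measured value was used to choose them. The other 12 arrays, 6 nano-TiO2 and 6 control hearts of day 28, served to estimate the spread within groups and for 1 comparison between the days.

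All mice were female C57BL/6, bought at an age of 5 to 7 weeks and kept for 1 to 3 weeks before use. The nano-TiO2 group received 1 instillation of 162 µg of particles in 40 µl. The particles were dispersed in water with 0.9% NaCl and 10% cell-free lavage fluid from the lungs of untreated mice, and the control group received the same volume of that liquid without particles. Both groups were anaesthetised with Hypnorm and Dormicum for the instillation and again when the hearts were taken, 24 hours later. The hearts were cut into small pieces before freezing. The labels do not say which part of the heart each RNA came from, and their extraction text speaks of left lung although the tissue is labelled as heart. Each array is labelled as a separate mouse.

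Particles that reach the deep lung are taken up by macrophages, and the lung answers with an acute phase response whose products, such as serum amyloid A and complement C3, circulate to other organs. The heart is a mosaic of atrial and ventricular muscle cells, vessels with smooth muscle, fibroblasts, resident macrophages, a mesothelial surface and the fat that clings to it. Stress hormones and handling act on it within hours through glucocorticoid-induced genes and immediate early genes, while its energy comes mainly from mitochondrial oxidation of fatty acids.

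Each array held heart RNA labelled with Cy5 and a common reference RNA, pooled from 11 mouse cell lines, labelled with Cy3. A level below is the log2 ratio of heart Cy5 over reference Cy3, and a difference is the nano-TiO2 mean minus the control mean on that log2 scale, so that a difference of 1 is a doubling. A probe counted as measured when its Cy5 signal was well above background on at least 5 of the 22 arrays, and 15503 genes, 10478 of them with a gene symbol, were tested. The share of probes well above background ran from 40.4% to 44.2% in the nano-TiO2 hearts and from 32.7% to 45.3% in the control hearts, with control replicates 4 and 5 the dimmest. The heart muscle genes Myh6, Tnnt2 and Actc1 were well above background on all 22 arrays, and the alveolar genes Sftpb and Sftpc on none. Sln, a calcium pump regulator of atrial muscle named here after its values were seen, was not well above background in nano-TiO2 replicate 1 and control replicate 2. On the first principal component of the 10 arrays, which took 35.2% of the variance, nano-TiO2 replicates 2 to 5 lay on one side and nano-TiO2 replicate 1 lay on the other with the 5 control hearts.

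No gene separated the groups after correction. With limma and Benjamini-Hochberg adjustment over all genes, 0 of 15503 genes passed an adjusted p of 0.05 (0% of those tested), and the smallest adjusted p was 0.273, for N4bp3. At an unadjusted p under 0.05 there were 1338 genes (8.63%), of which 929 were higher (5.99%) and 409 lower (2.64%) in the nano-TiO2 hearts. The larger differences ran upward: 76 genes were higher by over 1 on the log2 scale at that threshold and 0 were lower by as much. The upward lean varied with the processing. The counts were 821 higher and 194 lower with background parameters fitted on all spots, and 992 and 449 with scaling between arrays. They were 466 and 12 with median centring, which also moved the median of all genes to 0.17 on the log2 scale against 0.01. In the values deposited by the authors they were 733 and 654. Of the 929 higher genes, nano-TiO2 replicate 1 lay inside or below the control range for 559 (60.2%), against 76 to 283 for the other 4 nano-TiO2 hearts. The counts at unadjusted p under 0.05 were 1522 with slide as a fixed block, 1406 with slide as a random block and 1655 with scan day as a block, with 0 past the adjusted threshold in each. Without nano-TiO2 replicate 1, 21 genes passed the adjusted threshold, 19 higher and 2 lower. Without nano-TiO2 replicate 2, the count at unadjusted p under 0.05 was 852. Leaving out the arrays on which Sln was not well above background (nano-TiO2 replicate 1 and control replicate 2 of day 1, and nano-TiO2 replicate 1 of day 28), a choice made after seeing the data, gave 40 genes, 38 higher and 2 lower, and 20 of the 21 were among them. Those arrays were picked by a level measured on them, and nano-TiO2 replicate 1 was already known to lie apart from its group, so both counts describe the dependence on these hearts and do not replace the 0 from all arrays.

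**Figure D1:**
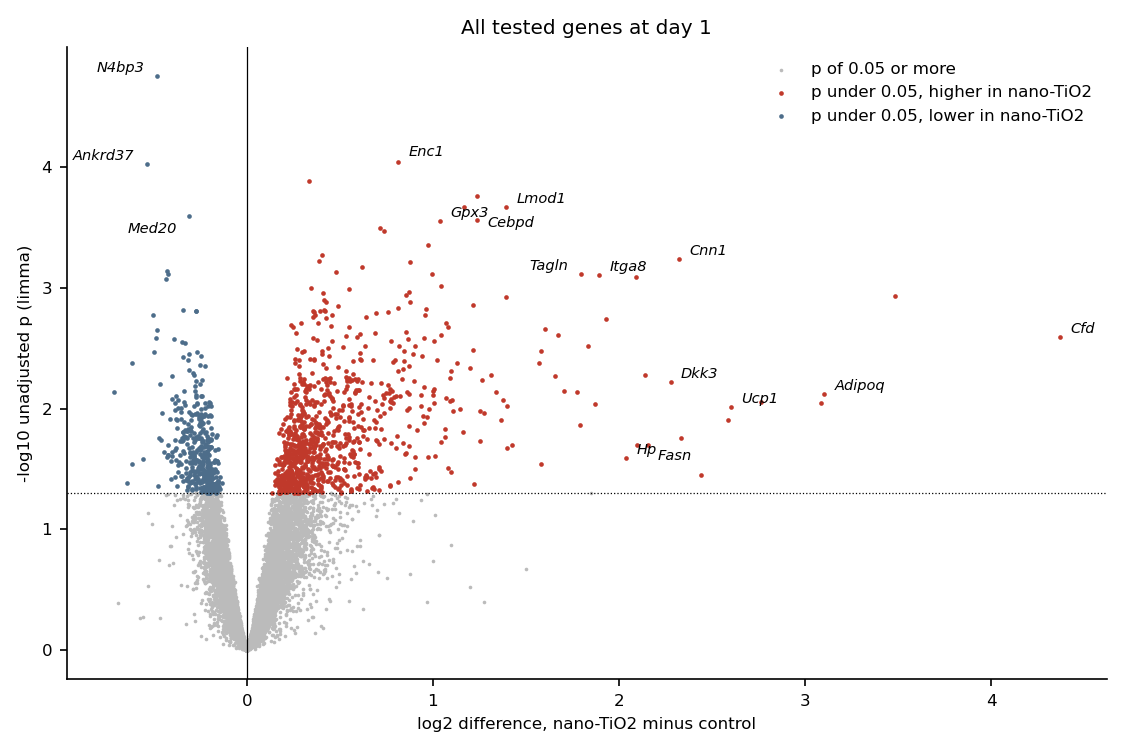
Log2 difference (nano-TiO2 minus control, horizontal) against the negative decimal logarithm of the unadjusted limma p (vertical) for each of the 15503 tested genes at day 1; the dotted line marks an unadjusted p of 0.05 and selected genes are named. The points past the line number 929 on the right and 409 on the left, and all 76 that differ by over 1 on the log2 scale lie on the right.

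Among genes with no overlap between the 5 nano-TiO2 and the 5 control hearts, 197 lay above (1.27% of all tested) and 66 below (0.426%), together 263 (1.70%). At least 4 nano-TiO2 hearts lay above every control heart for 930 genes (6.00%) and below for 403 (2.60%). Cebpd, a transcription factor that cytokines and glucocorticoids induce, had levels of -1.15, -0.25, -0.33, -0.98 and -0.62 in nano-TiO2 replicates 1 to 5, against -2.0, -1.69, -1.78, -1.69 and -2.36 in control replicates 1 to 5. Every nano-TiO2 heart lay above every control heart, and the difference was 1.24 (standard error 0.29, 2.36-fold, limma adjusted p = 0.434). Clu, a secreted chaperone that also restrains the terminal complement complex, had 3.70, 4.22, 4.19, 4.18 and 3.81 in the nano-TiO2 hearts and 3.23, 3.50, 3.41, 2.85 and 3.53 in the control hearts. The groups did not overlap, with a difference of 0.71 (standard error 0.17). Crip1, a small LIM-domain protein, had 0.84, 1.70, 1.28, 1.64 and 0.98 in the nano-TiO2 hearts and 0.52, 0.41, 0.67, 0.50 and 0.65 in the control hearts, a difference of 0.74 (standard error 0.18). Tmem37, a membrane protein, had -1.27, -0.93, -1.01, -0.83 and -1.28 in the nano-TiO2 hearts, and the 5 control hearts lay close together at -1.5, -1.55, -1.59, -1.53 and -1.54. The highest control heart was still below the lowest nano-TiO2 heart, and the difference was 0.48 (standard error 0.12), although the gene's other probe differed by only 0.05.

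Enc1, an actin-associated Kelch protein, had the smallest p of the named genes on the higher side (limma adjusted p = 0.434). Its levels were -1.37, -0.63, -0.57, -0.79 and -1.06 in the nano-TiO2 hearts and -2.02, -1.88, -1.67, -1.5 and -1.42 in the control hearts. The groups did not overlap, and the difference was 0.81 (standard error 0.17). It therefore had to be positive on the 4 slides that held a heart of each group. Its values were 0.65, 1.25, 0.70 and 0.36 on slides 5, 6, 9 and 1, which add no separate support. The other measured Enc1 probe differed by 0.02, so the probes of this gene disagree. Over all genes at unadjusted p under 0.05 with another measured probe, that probe had the same sign for 209 of 263 (79.5%), against 60.3% of the 2839 symbols with another probe.

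Genes that were lower differed by smaller amounts. N4bp3, a Nedd4-binding partner protein, had 0.54, 0.32, 0.39, 0.30 and 0.58 in the nano-TiO2 hearts and 0.98, 0.85, 0.97, 0.82 and 0.93 in the control hearts. The groups lay apart, and the difference was -0.48 (standard error 0.09, limma adjusted p = 0.273). It therefore had to be negative on each slide, and it was -0.43, -0.54, -0.52 and -0.35 on slides 5, 6, 9 and 1. Ankrd37, a small ankyrin-repeat protein induced by hypoxia, had -2.02, -2.39, -2.55, -2.61 and -2.31 in the nano-TiO2 hearts and -1.74, -1.65, -2.01, -1.98 and -1.81 in the control hearts, with a difference of -0.54 (standard error 0.11). The nearest pair, nano-TiO2 replicate 1 and control replicate 3, almost met. Med20, a subunit of the Mediator complex, had -0.62, -0.73, -0.66, -0.40 and -0.49 in the nano-TiO2 hearts and -0.31, -0.36, -0.37, -0.22 and -0.09 in the control hearts, a difference of -0.31 (standard error 0.07), and its other probe differed by -0.27. Of the 12 named for their small p on this side, these also did not overlap: Sema3b, a secreted semaphorin (-0.39), the ribonuclease Rnaset2b (-0.33) and R3hdm1 (-0.27). For Plec, which links intermediate filaments, 3 of 5 nano-TiO2 hearts lay below every control heart, with a difference of -0.42. For Prnd, the prion-like protein doppel (-0.48), the small GTPase Rasl11b (-0.49), the tetraspanin Tspan13 (-0.31) and Gin1 (-0.25) it was 4 of 5.

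N4bp3 was also compared with the day 28 groups. It was picked for the smallest p at day 1, so it does not show how the day 1 control hearts stood in general. At day 28 its levels ran from 0.20 to 0.66 (median 0.50) in 6 nano-TiO2 hearts and from 0.25 to 0.59 (median 0.43) in 6 control hearts. All 12 day 28 hearts thus lay below the lowest day 1 control heart and overlapped with the day 1 nano-TiO2 hearts.

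**Figure D2:**
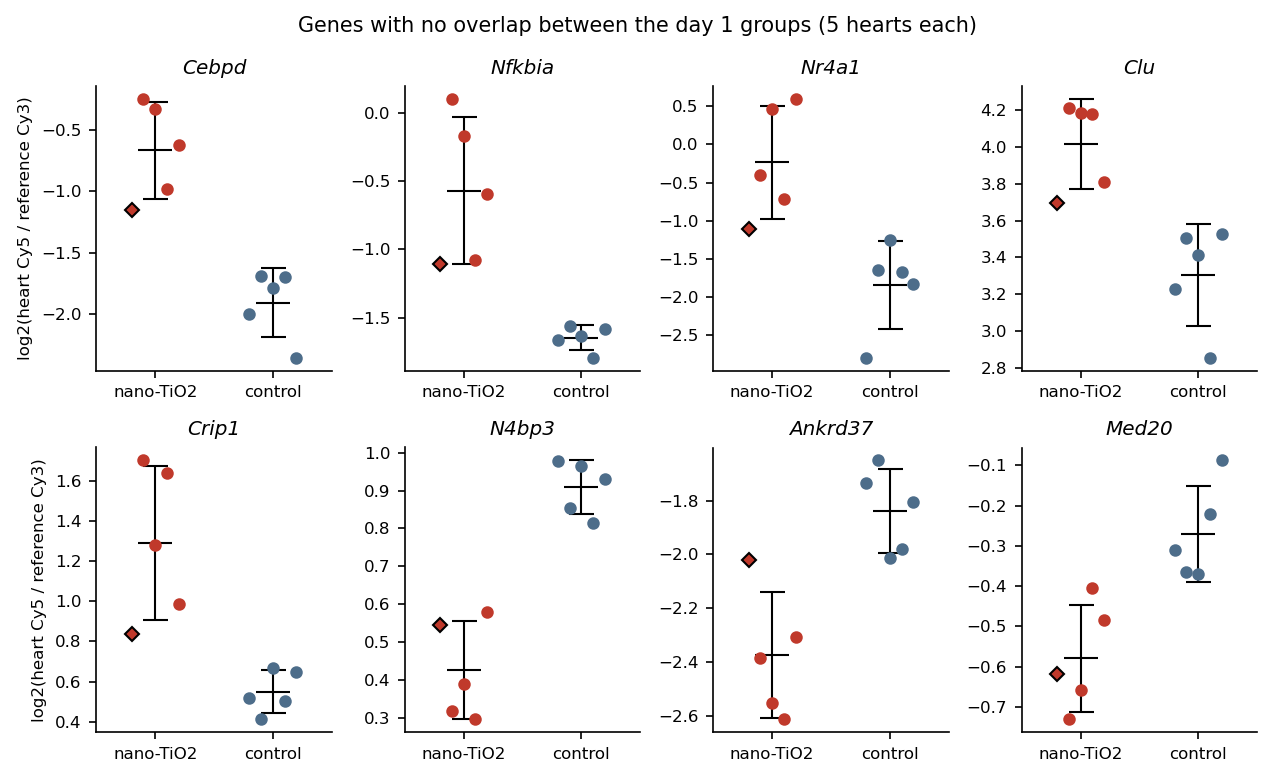
Levels of 8 genes as log2 of heart Cy5 over reference Cy3 (vertical axes, which differ between panels and do not start at 0) in 5 nano-TiO2 hearts (left, red) and 5 control hearts (right, blue) at day 1; the black diamond outline is nano-TiO2 replicate 1, and bars are mean ± SD. In each panel all 5 nano-TiO2 hearts lie on one side of all 5 control hearts, above for Cebpd, Nfkbia, Nr4a1, Clu and Crip1 and below for N4bp3, Ankrd37 and Med20.

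Glucocorticoid-induced genes were nearly all on the higher side. Of 19 measured members of that list, 18 had a positive difference, as 54.2% of all genes did, 7 were higher at unadjusted p under 0.05 and 0 were lower, and the median difference was 0.34, against 0.01 for all genes. Nfkbia, the inhibitor that holds NF-kappaB in the cytoplasm, had -1.10, 0.10, -0.16, -1.08 and -0.59 in the nano-TiO2 hearts and -1.66, -1.56, -1.63, -1.80 and -1.58 in the control hearts. The groups did not overlap, and the difference was 1.08 (standard error 0.31, 2.11-fold, limma adjusted p = 0.478). Dusp1, a phosphatase that switches off MAP kinases, had 1.30, 1.59, 2.23, 0.98 and 1.79 in the nano-TiO2 hearts and 0.35, 0.93, 1.28, 0.94 and 0.47 in the control hearts, a difference of 0.78 (standard error 0.25). Only control replicate 3 reached into the nano-TiO2 range. Sgk1, a kinase that promotes sodium uptake, had 0.08, 0.41, 0.24, -1.12 and 0.09 in the nano-TiO2 hearts and -0.76, -1.02, -0.61, -0.97 and -1.70 in the control hearts, a difference of 0.95 (standard error 0.28). Nano-TiO2 replicate 4 lay within the control range and the other 4 above it. Fkbp5, a chaperone partner of the glucocorticoid receptor, had -0.21, 1.42, 1.26, -0.20 and -0.08 in the nano-TiO2 hearts and -0.52, -0.39, -0.68, -0.28 and -0.33 in the control hearts, and was well above background in 1 control heart. Nano-TiO2 replicates 2 and 3 lay far above the rest; the other 3 lay close to the control hearts, 4 of which were not well above background, so that the order of these 8 is not reliable and the difference of 0.88 (standard error 0.40) is uncertain in size. Among other textbook glucocorticoid targets, Tsc22d3, Klf9 and Per1 differed by 0.19, 0.15 and 0.50, short of unadjusted p under 0.05.

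Immediate early genes, which cells transcribe within minutes of a stimulus, gave a mixed list. Of 23 measured members 17 had a positive difference, 8 were higher and 1 lower at unadjusted p under 0.05, and the median was 0.19. Over all genes 54.2% were positive, 5.99% higher and 2.64% lower at that threshold. Nr4a1, an orphan nuclear receptor, had -1.11, -0.40, 0.46, -0.72 and 0.59 in the nano-TiO2 hearts and -2.80, -1.65, -1.26, -1.67 and -1.83 in the control hearts. The groups did not overlap, and the difference was 1.60 (standard error 0.46, 3.04-fold). Without overlap it had to be positive on each slide, and it was 1.69, 1.24, 0.95 and 2.43 on slides 5, 6, 9 and 1. Egr1, a zinc finger transcription factor, had -1.43, -2.30, -1.61, -2.07 and -2.18 in the nano-TiO2 hearts and -3.20, -3.13, -2.47, -2.44 and -2.72 in the control hearts, again without overlap, and differed by 0.88 (standard error 0.24). Here nano-TiO2 replicate 1 was the highest of all 10. Gadd45g, a stress-induced growth arrest protein, had -1.20, 0.07, -0.47, -0.98 and -0.73 in the nano-TiO2 hearts and -1.48, -1.95, -1.61, -1.27 and -1.29 in the control hearts, a difference of 0.86 (standard error 0.25) with the groups just apart. Ier5 went the other way, with a difference of -0.41 (standard error 0.15) and 3 of 5 control hearts above every nano-TiO2 heart. Fos, which was well above background in 1 control heart, differed by 0.26 (standard error 0.12), and the stress factor Atf3 by 0.14 (standard error 0.19). Fkbp5, Tsc22d3, Klf9, Fos and Atf3 were picked for the text after their values were seen.

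The stretches before the transcription starts of Dusp1, Nfkbia and Nr4a1 are shown because all 3 were higher at unadjusted p under 0.05 and carry motifs of stress-responsive factors. Of the 15 members of both lists that were higher at unadjusted p under 0.05, 12 had a start with sequence used here. The 250 bases before each start are from RefSeq (GRCm38.p6), written in the direction of transcription, with capitals marking TGACGTCA, the full cAMP response element, TGCGTCA, a variant of it, or a simplified NF-kappaB motif, which is GGGA and CC with any 4 bases between, searched on both strands, with no match overlapping another.
Dusp1, chr17:26508473-26508722, minus strand: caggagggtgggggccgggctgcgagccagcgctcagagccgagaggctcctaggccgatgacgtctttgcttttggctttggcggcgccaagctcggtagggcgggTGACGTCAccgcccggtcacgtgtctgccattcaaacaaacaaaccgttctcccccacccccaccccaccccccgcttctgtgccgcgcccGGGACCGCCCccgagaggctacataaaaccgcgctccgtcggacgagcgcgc
Nfkbia, chr12:55492648-55492897, minus strand: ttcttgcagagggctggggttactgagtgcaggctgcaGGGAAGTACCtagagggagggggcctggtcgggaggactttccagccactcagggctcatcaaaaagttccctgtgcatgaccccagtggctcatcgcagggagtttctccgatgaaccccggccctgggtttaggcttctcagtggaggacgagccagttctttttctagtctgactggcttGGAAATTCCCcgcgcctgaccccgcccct
Nr4a1, chr15:101266596-101266845, plus strand: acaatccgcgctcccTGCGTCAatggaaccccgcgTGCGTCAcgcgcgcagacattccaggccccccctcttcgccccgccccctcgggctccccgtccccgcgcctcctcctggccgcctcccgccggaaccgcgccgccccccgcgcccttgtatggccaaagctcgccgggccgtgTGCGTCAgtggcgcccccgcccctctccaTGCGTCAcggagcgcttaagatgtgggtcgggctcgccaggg
The 12 genes have 22 windows, since some have several starts. TGACGTCA stood in 2 of the 22, of Dusp1 and Errfi1, and in 1.55% of all 32817 windows of that length. TGCGTCA stood 4 times in the window of Nr4a1, in no other of the 22, and in 1.74% of all windows. The NF-kappaB motif stood in 5 of the 22 and in 17.6% of all windows, with 2 copies before Nfkbia. Counted by gene, it stood in at least 1 window of 5 of the 12 and of 19.7% of all 27025 genes with a window. These matches are letters in a window and not measured binding.

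At day 28 the same genes were spread widely in both groups. Nfkbia ran from -1.49 to -0.52 (median -0.92) in the nano-TiO2 hearts of that day and from -1.93 to 0.19 (median -0.95) in its control hearts. Nr4a1 ran from -1.70 to 0.85 (median 0.31) in the nano-TiO2 hearts and from -1.52 to 0.80 (median 0.32) in the control hearts of day 28. For both genes the day 28 medians of both groups were nearer to the median of the day 1 nano-TiO2 hearts than to that of the day 1 control hearts. The hour at which each mouse was killed is not given in the labels, so its part in these differences was not tested. Among all genes 54.2% had a positive and 45.8% a negative difference, with 5.99% higher and 2.64% lower at unadjusted p under 0.05. The core clock list had 6 of 15 members higher, 9 lower and none at that threshold. Its median was -0.09 (-0.14 to -0.03 with 1 heart left out). With median centring it was 0.06, where the median of all genes was 0.17.

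**Figure D3:**
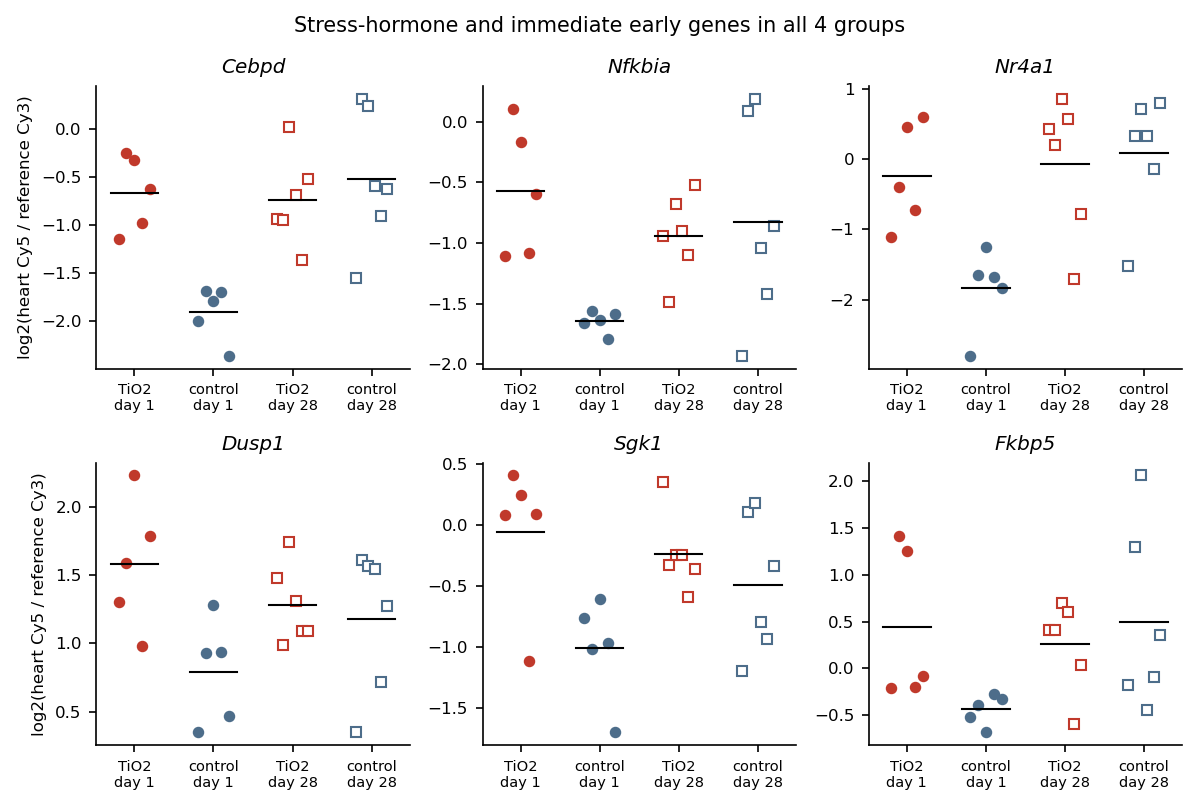
Levels of 6 stress-hormone and immediate early genes as log2 of heart Cy5 over reference Cy3 (vertical axes, which differ between panels) in the nano-TiO2 and control hearts of day 1 (filled circles, 5 each) and of day 28 (open squares, 6 each); lines are group means. The day 1 control hearts have the lowest mean in every panel, and both day 28 groups overlap with the day 1 nano-TiO2 hearts.

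Atrial genes were higher in 4 of the 5 nano-TiO2 hearts. All 9 measured members of the atrial list had a positive difference, 5 of them at unadjusted p under 0.05, and the median was 1.5. Over all genes 54.2% had a positive difference, 5.99% were higher at that threshold, and the median was 0.01. The list mean per heart was 1.20, 4.70, 4.8, 5.00 and 4.31 in the nano-TiO2 hearts and 2.87, 1.24, 3.36, 1.89 and 3.72 in the control hearts. Nano-TiO2 replicate 1 was the lowest of all 10, the other 4 lay above every control heart, and the pair on slide 5 ran opposite to those on slides 6, 9 and 1 (differences of -1.68, 3.46, 3.11 and 0.59 on slides 5, 6, 9 and 1). In whole pieces of tissue, fewer cells of a type and less RNA per cell cannot be told apart. Dkk3, a secreted glycoprotein of atrial muscle, had -0.33, 3.63, 3.75, 4.19 and 2.72 in the nano-TiO2 hearts and 0.10, 0.02, 0.97, -0.10 and 1.58 in the control hearts, a difference of 2.28 (standard error 0.75). Gja5, the connexin of atrial muscle and of the conduction system, had 1.39, 3.83, 3.92, 4.49 and 3.11 in the nano-TiO2 hearts and 1.63, 1.15, 2.12, 1.42 and 2.13 in the control hearts, a difference of 1.66 (standard error 0.54), with only 0.13 at its other probe. In both genes nano-TiO2 replicate 1 lay inside or below the control range and the other 4 hearts lay clear of it. Dkk3 was not measured in every alternative, and its difference ran from 1.93 to 3.06 where it was, so its size is uncertain. Stard10, a lipid transfer protein, and Tbx5, a transcription factor of atria and left ventricle, differed by 1.57 and 1.09. Bmp10, a growth factor of atrial muscle named after its values were seen, was well above background in 4 nano-TiO2 hearts and in 0 control hearts and was at least 2.80-fold higher (limma adjusted p = 0.478). For this bound the nano-TiO2 mean was set against the mean over control arrays of the higher of the gene's own signal and the lowest signal well above background.

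Markers of the ventricle and of heart muscle in general overlapped between the groups. Over the 7 of 8 general heart muscle genes with a value in all 10 hearts, the mean level was 5.59 ± 0.16 in the nano-TiO2 hearts and 5.65 ± 0.14 in the control hearts (SD, n = 5 each). Over 4 of 5 ventricular genes it was 3.57 ± 0.16 in the nano-TiO2 hearts and 3.64 ± 0.15 in the control hearts. The differences of these means, -0.05 and -0.07, were smaller than the spread within either group. The median difference of all 5 ventricular genes was -0.07 (-0.13 without nano-TiO2 replicate 1 to 0.01 without nano-TiO2 replicate 4), and 0.28 with median centring. Nppa, the atrial natriuretic peptide, which stressed ventricles also make, had 5.11, 5.15, 5.18, 5.34 and 5.52 in the nano-TiO2 hearts and 5.18, 5.23, 4.69, 4.83 and 5.50 in the control hearts, with wide overlap, and differed by 0.17, or 0.68 at its other probe.

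Smooth muscle genes set the same 4 nano-TiO2 hearts apart from the rest. Of 9 measured members 7 were on the higher side, 4 of them at unadjusted p under 0.05, and the median was 0.36. The shares over all genes were 54.2% and 5.99%. Cnn1, a calponin that binds actin in smooth muscle, had -0.25, 3.08, 2.70, 3.22 and 2.67 in the nano-TiO2 hearts and -0.54, -0.53, -0.08, -0.01 and 0.97 in the control hearts. Nano-TiO2 replicate 1 lay among the control hearts and the other 4 far above them, with a mean difference of 2.32 (standard error 0.58, 5.00-fold, limma adjusted p = 0.474). Tagln, another actin-binding protein of smooth muscle, had -1.96, 0.07, -0.32, 0.44 and -0.07 in the nano-TiO2 hearts and -2.18, -2.26, -2.08, -2.76 and -1.55 in the control hearts, a difference of 1.80 (standard error 0.46). Lmod1, which seeds actin filaments, had 0.46, 2.08, 1.77, 2.21 and 1.61 in the nano-TiO2 hearts and 0.27, -0.15, 0.14, 0.23 and 0.66 in the control hearts, a difference of 1.39 (standard error 0.32). Myh11, the smooth muscle myosin heavy chain, differed by 1.05 (standard error 0.28). Itga8, an integrin of contractile mesenchymal cells, followed the same order with 1.09, 3.45, 3.30, 3.75 and 3.12 in the nano-TiO2 hearts, 0.99, 1.05, 1.30, 0.57 and 1.32 in the control hearts and a difference of 1.90 (standard error 0.49). Without nano-TiO2 replicate 1, Cnn1, Tagln, Lmod1, Myh11 and Itga8 passed the adjusted threshold, and Cnn1 differed by 2.95. That heart was the low one for these same genes. Leaving it out therefore favours them, and the result shows only how much they depend on this heart. With all arrays none of them passed.

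Transcripts of fat cells showed the largest differences of all named genes. All 9 measured members of the fat cell list had a positive difference, 5 at unadjusted p under 0.05, against 54.2% and 5.99% of all genes. The median was 2.34. With probes required to be well above background on all 10 arrays, which removes Cfd, Adipoq, Cidec and Car3 among others, it was 0.29. Cfd, or adipsin, a serine protease that fat cells secrete and that starts the alternative complement pathway, had 0.93, 7.12, 6.38, 8.36 and 6.92 in the nano-TiO2 hearts and 0.37, 0.67, 0.98, 0.81 and 5.04 in the control hearts. Nano-TiO2 replicate 1 was as low as control replicates 1 to 4, control replicate 5 lay between these and the other 4 nano-TiO2 hearts, and the difference was 4.37 (standard error 1.29). Cfd was not well above background on all 10 arrays, and its difference ran from 3.12 to 5.62 over the alternatives, so its size is uncertain too. Adipoq and Cidec were well above background in nano-TiO2 replicates 2 to 5 and in 1 control heart, and Car3 in all but 1 nano-TiO2 heart, so that their low levels are near background and have no reliable order, and the size of each difference is uncertain. Adipoq, the hormone adiponectin, had -0.20, 4.25, 3.02, 6.01 and 4.29 in the nano-TiO2 hearts and 0.13, -0.15, 0.04, -0.14 and 1.98 in the control hearts, a difference of 3.1 (standard error 1.06). Cidec, which fuses lipid droplets, differed by 3.08 (standard error 1.08), Car3, an abundant carbonic anhydrase of fat, by 2.59 (standard error 0.95), and Fasn, a fatty acid synthase outside this list, by 2.15 (standard error 0.86). The same 4 nano-TiO2 hearts lay above the other nano-TiO2 heart in each of these genes, and their values ranged widely, with replicate 4 the highest in all 5 genes.

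Of 4 measured brown fat markers 2 had a positive and 2 a negative difference, as 54.2% and 45.8% of all genes did. The 2 positive ones were higher at unadjusted p under 0.05, as 5.99% of all genes were. The list median was 0.08. It was -0.13 with plain background subtraction, -0.04 with the scanner's log ratios, -0.03 with scaling between arrays and -0.14 with probes well above background on all 10 arrays. Ucp1, the uncoupling protein that makes heat in brown fat, had 0.03, 3.35, 0.02, 5.2 and 4.60 in the nano-TiO2 hearts and -0.04, 0.11, -0.07, 0.19 and 0.01 in the control hearts. It was well above background in nano-TiO2 replicates 2, 4 and 5 and in no control heart, and was at least 4.99-fold higher in the nano-TiO2 group (limma adjusted p = 0.479). Cidea, which helps lipid droplets fuse, was well above background in all 10 hearts and differed by 0.31 (standard error 0.14), a sign that turned with plain background subtraction and with the scanner's log ratios (-0.17 and -0.03). Cox8b, a cytochrome oxidase subunit of heart, muscle and brown fat, and Ppargc1a, a co-activator of mitochondrial genes, differed by -0.14 and -0.15, short of unadjusted p under 0.05.

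Markers of the mesothelium, the cell layer that covers the heart, were also on the higher side. All 8 measured markers had a positive difference, 5 at unadjusted p under 0.05, against 54.2% and 5.99% of all genes. Their median was 0.74. The list mean was -2.16, -1.08, -1.66, -0.80 and -1.21 in the nano-TiO2 hearts and -2.41, -2.01, -2.23, -1.77 and -1.5 in the control hearts, and its difference was 0.25, 0.93, 0.97 and 0.29 on slides 5, 6, 9 and 1. Lrrn4, a membrane protein of mesothelial cells, had -0.15, 0.80, 0.16, 1.21 and 0.75 in the nano-TiO2 hearts and -0.60, -0.35, -0.60, -0.12 and 0.12 in the control hearts, a difference of 0.86 (standard error 0.26), and was well above background in 1 control heart, which leaves its size uncertain. Msln, mesothelin, which marks this layer, differed by 0.85 (standard error 0.35), with nano-TiO2 replicates 1 and 3 inside the control range. The uroplakins Upk1b and Upk3b differed by 0.77 and 0.86. Neither was measured in every alternative. Where measured, their differences ran from 0.59 to 2.59 and from 0.65 to 1.58, so their size is uncertain.

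**Figure D4:**
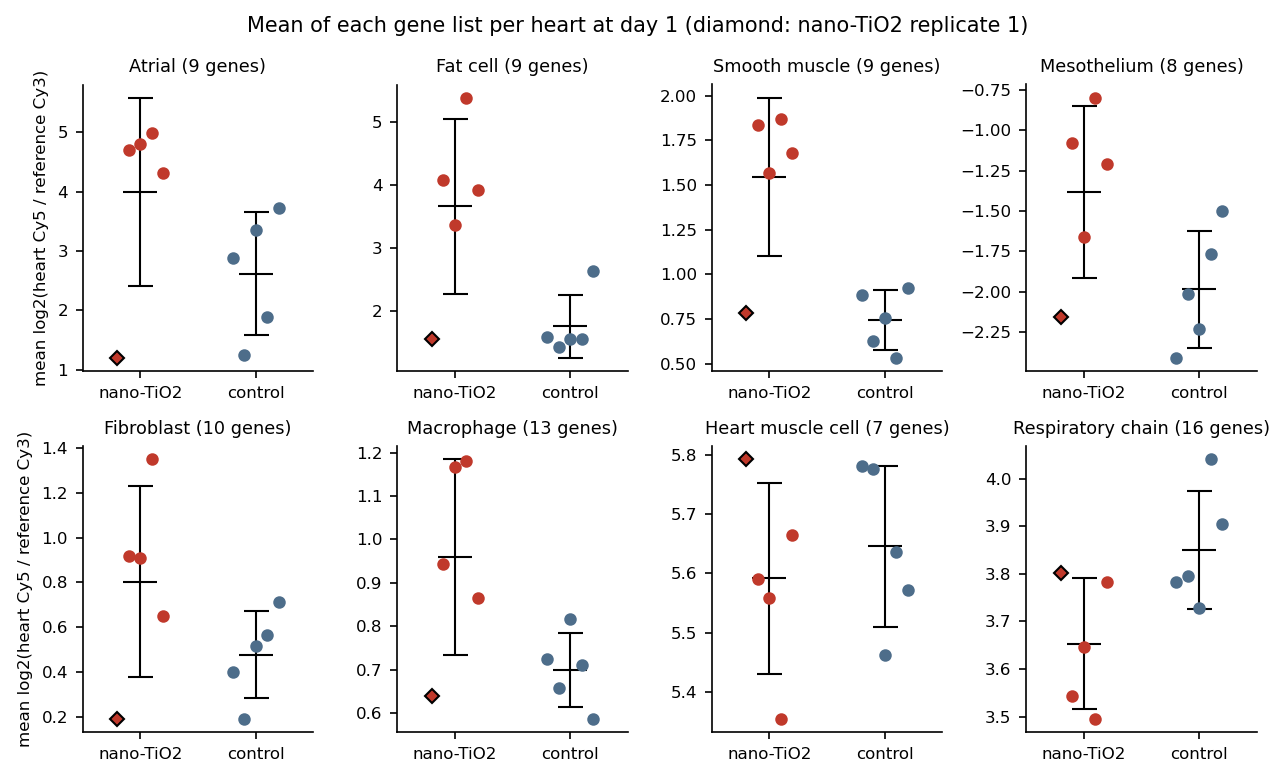
Mean level of 8 gene lists per heart at day 1, as log2 of heart Cy5 over reference Cy3 averaged over the members with a value in all 10 hearts (vertical axes, which differ between panels), in 5 nano-TiO2 hearts (left, red) and 5 control hearts (right, blue); the diamond is nano-TiO2 replicate 1, and bars are mean ± SD. Nano-TiO2 replicates 2 to 5 lie above every control heart in the atrial, fat cell, smooth muscle and macrophage lists, and replicate 1 lies within or below the control range in these lists.

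Complement genes, which the title of the series names, were mostly on the higher side at day 1. Complement is a chain of plasma proteases in which the classical and alternative routes meet at C3, and regulators protect host cells. All 4 measured members of the alternative pathway were higher at unadjusted p under 0.05, as 5.99% of all genes were, with a median of 1.06. C3, the common hub, had -0.39, 0.97, 0.17, 1.98 and 0.88 in the nano-TiO2 hearts and -1.35, -0.46, -0.99, -0.29 and 0.15 in the control hearts. Nano-TiO2 replicate 1 lay inside the control range and control replicate 5 just below nano-TiO2 replicate 3, and the difference was 1.31 (standard error 0.43, 2.49-fold, limma adjusted p = 0.478), with 0.16 at its other probe. Cfb, the protease of the alternative convertase, had 0.41, 1.37, 0.96, 1.96 and 0.99 in the nano-TiO2 hearts and 0.21, 0.48, 0.23, 0.14 and 0.56 in the control hearts, a difference of 0.81 (standard error 0.37). Cfb was not measured in every alternative, and its difference ran from 0.61 to 1.17 where it was. Cfp, or properdin, which stabilises that convertase, had -0.02, 0.40, -0.02, 0.92 and 0.14 in the nano-TiO2 hearts and -0.34, -0.27, -0.42, -0.26 and -0.25 in the control hearts, a difference of 0.59 (standard error 0.28) without overlap. The other member is Cfd, which stands in the fat cell list too, so the means of both lists are not independent. Both means were highest in nano-TiO2 replicate 4 among the nano-TiO2 hearts and in replicate 5 among the control hearts. C3, Cfb and Cfp were each also highest in these hearts of their groups, for Cfp by a narrow margin among the control hearts. The part of fat cells in the complement values was not tested.

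Of 11 measured members of the classical and lectin routes, 8 were on the higher side and 6 at unadjusted p under 0.05. The shares over all genes were 54.2% and 5.99%. The list median was 0.29, which was 0.04 with no filter on dim probes and 0.47 with median centring. C2, a protease of the classical convertase, had 0.70, 2.19, 1.16, 2.76 and 1.86 in the nano-TiO2 hearts and 0.09, 0.93, 0.27, 0.33 and 0.73 in the control hearts, a difference of 1.26 (standard error 0.41). C4b, its partner, had -0.07, 1.40, 0.88, 2.22 and 1.09 in the nano-TiO2 hearts and -0.45, 0.01, -0.19, 0.15 and 0.79 in the control hearts, a difference of 1.04 (standard error 0.41). In both genes nano-TiO2 replicate 1 lay inside the control range and the other 4 hearts above it. C1qb, a chain of the recognition protein C1q made by macrophages, and C1ra, a protease of C1, differed by 0.39 and 0.42. Of 7 measured regulators, 4 were on the higher side and 3 at unadjusted p under 0.05, with a median of 0.13, or −0.02 without nano-TiO2 replicate 2. Beside Clu these were Cd55, a membrane brake (0.34), and Serping1, the C1 inhibitor (0.40), whose sign turned with plain background subtraction (-0.19). Of the terminal pathway 2 of 7 members and of the complement receptors 1 of 6 could be measured, and none of them reached unadjusted p under 0.05.

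Among acute phase genes, 9 of 11 measured members were on the higher side, 3 at unadjusted p under 0.05, with a median of 0.16. The shares over all genes were 54.2% and 5.99%. Hp, haptoglobin, which binds free haemoglobin and is made by liver and fat, had -1.49, 2.27, 1.23, 3.84 and 2.22 in the nano-TiO2 hearts and -0.76, -0.67, -0.86, 0.01 and 0.14 in the control hearts, a difference of 2.04 (standard error 0.85). Nano-TiO2 replicate 1 was the lowest and nano-TiO2 replicate 4 the highest of all 10. Cp, the copper carrier ceruloplasmin, had -1.30, -1.11, -1.32, -1.24 and -1.37 in the nano-TiO2 hearts and -1.5, -1.67, -1.72, -1.41 and -1.46 in the control hearts, a small difference of 0.28 (standard error 0.12) without overlap. Il1r1, the interleukin-1 receptor, differed by 0.26 (standard error 0.11).

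Of 18 measured cytokines and chemokines 13 were on the higher side, 5 of them at unadjusted p under 0.05, and 1 was lower, with a median of 0.21. Over all genes 54.2% were on the higher side, with 5.99% higher and 2.64% lower at that threshold. Ccl19, which draws dendritic cells and T cells through Ccr7, had 1.49, 4.22, 3.98, 4.25 and 3.35 in the nano-TiO2 hearts and 1.48, 1.18, 1.83, 1.07 and 2.08 in the control hearts, a difference of 1.93 (standard error 0.55) with 1.66 at its other probe. Nano-TiO2 replicate 1 lay among the control hearts and the other 4 far above. Ccl9, a macrophage chemokine, had -0.23, 0.10, -0.10, -0.10 and -0.25 in the nano-TiO2 hearts and -0.84, -0.73, -0.54, -0.46 and -0.59 in the control hearts, a difference of 0.52 (standard error 0.16) without overlap and with replicate 1 on the side of its group. Ccl6, a relative of Ccl9, differed by 0.89 (standard error 0.27). Cxcl12, which holds haematopoietic cells in their niches, was lower, with 0.76, 0.48, 0.40, 0.20 and 0.57 in the nano-TiO2 hearts and 0.72, 0.72, 0.88, 1.37 and 1.18 in the control hearts, a difference of -0.50 (standard error 0.15) that was -0.07 at its other probe. Only nano-TiO2 replicate 1 lay inside the control range.

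Macrophage markers were on the higher side for 12 of 13 measured members, 3 of them at unadjusted p under 0.05, with a median of 0.21. For this and the next cell type lists, the shares over all genes were 54.2% positive and 5.99% higher at that threshold. Lyve1, which marks resident macrophages and lymphatic vessels, had 2.29, 3.44, 3.69, 3.53 and 2.79 in the nano-TiO2 hearts and 2.21, 2.12, 2.77, 2.70 and 2.12 in the control hearts, a difference of 0.76 (standard error 0.26). Mrc1, the mannose receptor, and Fcgr3, an Fc receptor, differed by 0.50 and 0.33. Of the neutrophil list 2 of 12 members could be measured: S100a9, a calcium-binding protein of neutrophil granules, differed by 0.60 and its partner S100a8 by 0.21, both short of unadjusted p under 0.05. Of the T cell list 3 of 7 and of the B cell list 3 of 6 members could be measured, none at that threshold, with medians of -0.02 (-0.09 without nano-TiO2 replicate 2 to 0.05 without control replicate 5) and 0.16 (-0.04 without nano-TiO2 replicate 4 to 0.29 without control replicate 5). All 10 fibroblast markers had a positive difference, but only Dpep1, a dipeptidase, reached unadjusted p under 0.05 (0.29), and the median was 0.33 (0.22 without nano-TiO2 replicate 4 to 0.53 without nano-TiO2 replicate 1). Of 10 endothelial markers 8 were positive, Eng, a co-receptor for TGF-beta, alone reached that threshold (0.34), and the median was 0.11 (0.00 to 0.14 with 1 heart left out); its sign turned with plain background subtraction and the scanner's log ratios (-0.03 and -0.02).

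Matrix genes had 11 of 16 measured members on the higher side, where 54.2% of all genes were, and 4 at unadjusted p under 0.05, where 5.99% of all genes were. The median was 0.10 (0.04 without control replicate 1 to 0.17 without nano-TiO2 replicate 1). Eln, elastin of vessel walls, had 0.46, 1.52, 1.22, 1.55 and 1.00 in the nano-TiO2 hearts and 0.56, 0.15, 0.66, 0.65 and 0.54 in the control hearts, a difference of 0.63 (standard error 0.19). Comp, a matrix protein of tendon, cartilage and vessel walls, differed by 1.25 (standard error 0.49) and Ccn2, a matricellular protein induced by TGF-beta and stretch, by 1.01 (standard error 0.42). Fbn1, the microfibril protein fibrillin, had 0.64, 0.80, 0.56, 0.74 and 0.66 in the nano-TiO2 hearts and 0.40, 0.26, 0.44, 0.51 and 0.18 in the control hearts, a difference of 0.32 (standard error 0.14) without overlap. Of these 4 genes only Fbn1 had nano-TiO2 replicate 1 above every control heart.

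Genes of vascular tone had 10 of 11 measured members on the higher side, 5 at unadjusted p under 0.05, against 54.2% and 5.99% of all genes. The median was 0.34, with 0.15 under array quality weights and 0.22 without control replicate 4. Ptgis, prostacyclin synthase, which makes a vessel-relaxing lipid, had -0.42, 0.40, 0.31, 0.59 and 0.07 in the nano-TiO2 hearts and -0.45, -0.36, -0.22, -0.24 and -0.10 in the control hearts, a difference of 0.46 (standard error 0.16). Ednrb, an endothelin receptor, differed by 0.47 (standard error 0.17), Adm, the vessel-relaxing peptide adrenomedullin, by 0.53 (standard error 0.20), and Npr3, the clearance receptor of natriuretic peptides, by 0.84 (standard error 0.33). In all 4 genes nano-TiO2 replicate 1 lay in or below the control range and the other 4 hearts above it. Coagulation and adhesion genes had 11 of 13 measured members on the higher side, 4 at unadjusted p under 0.05, and a median of 0.09 (0.08 to 0.15 with 1 heart left out). F2r, the thrombin receptor, had -0.93, -0.59, -0.49, -0.62 and -1.20 in the nano-TiO2 hearts and -1.55, -1.52, -1.33, -1.40 and -1.09 in the control hearts, a difference of 0.61 (standard error 0.19). Only nano-TiO2 replicate 5 overlapped with the control hearts. The others at that threshold were Procr, the protein C receptor (0.29), F13a1, the clot cross-linking enzyme, which macrophages also make (0.55), and Vcam1, which binds leukocytes to vessel walls (0.45).

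Mitochondrial genes leaned the other way. Of 18 measured subunits of the respiratory chain and ATP synthase, 16 had a negative difference, as 45.8% of all genes did, 6 were lower at unadjusted p under 0.05 and 0 higher, and the median was -0.18; with median centring it was 0.10, against 0.17 for all genes under that scaling. Cyc1, cytochrome c1 of complex III, had 2.26, 1.95, 2.14, 1.92 and 2.13 in the nano-TiO2 hearts and 2.40, 2.41, 2.20, 2.37 and 2.44 in the control hearts. Only nano-TiO2 replicate 1 and control replicate 3 crossed, and the difference was -0.28 (standard error 0.09, limma adjusted p = 0.478), negative on all 4 slides at -0.14, -0.46, -0.45 and -0.32 on slides 5, 6, 9 and 1, and 0.07 with median centring. Uqcrc1, a core subunit of the same complex, had 2.79, 2.61, 2.47, 2.38 and 2.78 in the nano-TiO2 hearts and 2.72, 2.98, 2.72, 3.20 and 3.08 in the control hearts, a difference of -0.33 (standard error 0.14) with -0.37 at its other probe. Cox7a1, the heart form of a cytochrome oxidase subunit, and Atp5a1, the alpha subunit of ATP synthase, differed by -0.34 and -0.28. The other probe of Atp5a1 differed by 0.01. With median centring Uqcrc1, Cox7a1 and Atp5a1 changed sign, to 0.06, 0.07 and 0.11. Over the 16 of 18 genes with a value in all 10 hearts, the mean level was 3.80, 3.54, 3.65, 3.49 and 3.78 in the nano-TiO2 hearts and 3.78, 3.80, 3.73, 4.04 and 3.90 in the control hearts. Nano-TiO2 replicates 2, 3 and 4 were the lowest, control replicates 4 and 5 the highest, and those 2 control arrays were also the dimmest of the 10; the part of signal strength in this difference was not tested.

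Of 11 measured citrate cycle enzymes, 10 had a negative difference and 4 were lower at unadjusted p under 0.05, against 45.8% and 2.64% of all genes. The list median was -0.21. With median centring it was 0.16, where the median of all genes was 0.17. Sucla2, a subunit of the succinate-CoA ligase that makes ATP, had 3.66, 3.39, 3.45, 3.36 and 3.56 in the nano-TiO2 hearts and 3.60, 3.76, 3.62, 3.93 and 3.77 in the control hearts, a difference of -0.25 (standard error 0.09). Suclg2, its counterpart that makes GTP, had 1.44, 1.14, 1.10, 0.94 and 1.21 in the nano-TiO2 hearts and 1.31, 1.60, 1.40, 1.58 and 1.44 in the control hearts, a difference of -0.30 (standard error 0.11). Both had other probes of similar size, -0.27 and -0.23, and in both nano-TiO2 replicate 1 lay within the control range. Idh2, the mitochondrial NADP isocitrate dehydrogenase, and Cs, citrate synthase, differed by -0.34 and -0.24. With median centring Sucla2 and Cs changed sign (0.09 and 0.16). Among the 19 measured genes of fatty acid oxidation 13 were negative, with 1 at unadjusted p under 0.05, Acadm, the medium-chain acyl-CoA dehydrogenase (-0.23), and a median of -0.06 (-0.12 to -0.03 with 1 heart left out). Among 12 genes of glucose use 9 were negative, with 1 at that threshold, Pfkm, muscle phosphofructokinase (-0.29), and a median of -0.08 (-0.13 to -0.05 with 1 heart left out). With median centring both genes were positive and the medians were 0.16 for fatty acid oxidation and 0.23 for glucose use. The median of all genes was 0.17 under that scaling.

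**Figure D5:**
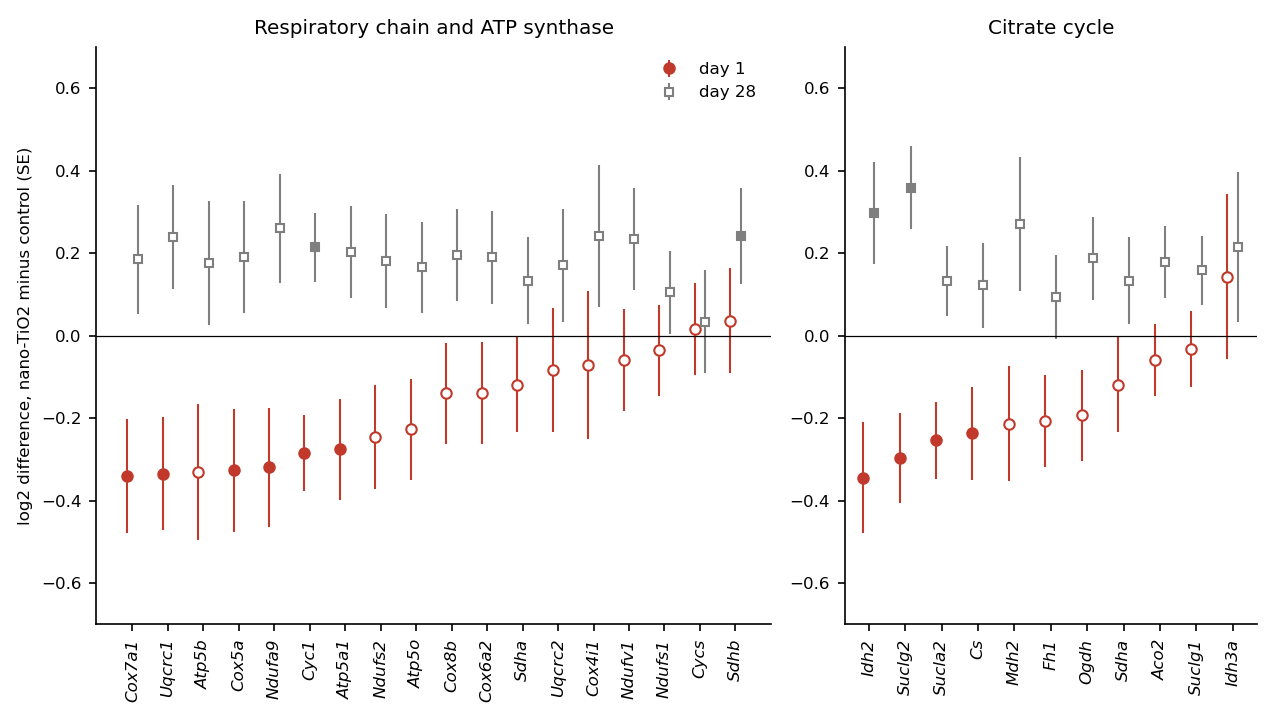
Log2 difference, nano-TiO2 minus control, with its standard error (vertical) for each measured gene of the respiratory chain and ATP synthase (left) and of the citrate cycle (right), at day 1 (red circles) and day 28 (grey squares); filled symbols have an unadjusted limma p under 0.05. At day 1, 16 of 18 and 10 of 11 points lie below 0, and at day 28 the list medians are 0.19 and 0.18. With median centring the day 1 list medians were 0.10 and 0.16, where the median of all genes was 0.17.

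Contractile and electrical genes differed little. Over all genes 54.2% had a positive and 45.8% a negative difference, with 5.99% higher and 2.64% lower at unadjusted p under 0.05. Of 19 measured sarcomere genes 13 were negative, and Tpm1, alpha-tropomyosin, was the only one at unadjusted p under 0.05, with 6.12, 5.89, 6.69, 6.69 and 6.73 in the nano-TiO2 hearts, 6.65, 6.58, 6.57, 7.22 and 7.22 in the control hearts, a difference of -0.42 (standard error 0.18) and 0.16 at its other probe. Of 11 calcium handling genes 5 were positive and 6 negative. Asph, whose splice forms include junctional proteins of the sarcoplasmic reticulum, was lower at that threshold (-0.47), with 0.00 at the brightest other probe. Of 13 ion channel and connexin genes 9 were positive, and beside Gja5 the potassium channel Kcnh2 was higher at that threshold (0.23), while Kcne1, a partner subunit of potassium channels, differed by -0.43 short of it. Fhl2, a LIM-domain protein of the sarcomere, had 5.94, 5.38, 5.80, 5.35 and 5.73 in the nano-TiO2 hearts and 5.99, 5.67, 6.02, 6.61 and 6.04 in the control hearts, a difference of -0.43 (standard error 0.18), and Cyfip2, an actin regulator, differed by -0.46 with -0.04 at its other probe. The medians of the sarcomere, calcium and channel lists were -0.05 (-0.12 to -0.02 with 1 heart left out), -0.02 (-0.07 without nano-TiO2 replicate 3 to 0.07 without control replicate 3) and 0.10 (0.08 to 0.16 with 1 heart left out), of which the first and second were positive with median centring and the third was negative with plain background subtraction (-0.07).

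Defence genes against oxidants showed 1 marked member. For the lists of this paragraph, the shares over all genes were 54.2% positive and 45.8% negative. At unadjusted p under 0.05 they were 5.99% higher and 2.64% lower. Gpx3, the secreted glutathione peroxidase, had 3.21, 4.41, 4.48, 4.41 and 4.22 in the nano-TiO2 hearts and 3.14, 2.94, 3.51, 2.49 and 3.45 in the control hearts. Nano-TiO2 replicates 2 to 5 lay above every control heart and replicate 1 among them, and the difference was 1.04 (standard error 0.24, limma adjusted p = 0.434), but -0.01 with plain background subtraction and -0.12 with the scanner's own log ratios. It was the only one of 14 antioxidant enzymes at unadjusted p under 0.05, and the list median was 0.05 (0.00 to 0.07 with 1 heart left out), or -0.09 with the scanner's log ratios. Of 15 measured Nrf2 and metal-responsive genes 11 were positive and none passed that threshold, with a median of 0.08 (0.04 to 0.13 with 1 heart left out). Me1, malic enzyme, which supplies NADPH and is also abundant in fat, came nearest, with 0.99, 0.72, 0.75, 1.5 and 0.91 in the nano-TiO2 hearts, 0.69, 0.69, 0.66, 0.57 and 0.60 in the control hearts and a difference of 0.33 (standard error 0.17), and its groups did not overlap. Of 14 heat shock genes 9 were negative, with Hspd1, the mitochondrial chaperonin, at that threshold (-0.22, or 0.17 with median centring), and the median was -0.05 (-0.07 to -0.01 with 1 heart left out). Of 12 hypoxia-responsive genes 8 were negative: Ankrd37 and Pdk1, which restrains pyruvate dehydrogenase (-0.21, or 0.02 with median centring), were lower and Adm higher at that threshold, and the median was -0.18 (-0.21 to -0.10 with 1 heart left out). Of 18 interferon-induced genes 11 were positive and none passed it, with a median of 0.05 (0.00 to 0.10 with 1 heart left out). Of 14 cell cycle genes 11 were negative and none passed it, with a median of -0.12 (-0.19 to -0.01 with 1 heart left out). With median centring the medians of the heat shock, hypoxia and cell cycle lists were 0.27, 0.11 and 0.17, where the median of all genes was 0.17.

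Gene lists of other organs could be measured only in part. For comparison, 54.2% of all genes had a positive and 45.8% a negative difference. At unadjusted p under 0.05, 5.99% of all genes were higher and 2.64% lower. Scgb1a1, an airway secretory protein, was well above background in 1 nano-TiO2 heart and 1 control heart. Of the liver plasma protein list 5 of 9 members could be measured, none at unadjusted p under 0.05, with a median of -0.06 (-0.55 without nano-TiO2 replicate 2 to 0.17 without nano-TiO2 replicate 1). With the scanner's log ratios that median was -1.67. The liver list mean was 0.18, 3.49, 1.61, 1.73 and 0.84 in the nano-TiO2 hearts and 1.73, 1.90, 1.47, 2.10 and 1.04 in the control hearts. Of the skeletal muscle list 5 of 7 could be measured, 4 of them positive, with a list median of 0.17 (0.06 to 0.24 with 1 heart left out). Tnni2, a fast-muscle troponin, was its only member at unadjusted p under 0.05, with a difference of 0.42 (standard error 0.17). Of the thymus, red cell, lung epithelium and nerve sheath lists 1, 2, 1 and 1 members could be measured, none at that threshold.

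Of the named genes not yet described, Spock2, a matrix proteoglycan, had 0.46, 1.64, 1.30, 1.89 and 1.42 in the nano-TiO2 hearts and 0.20, 0.24, 0.36, 0.33 and 0.60 in the control hearts, and was well above background in all 5 nano-TiO2 hearts and in 1 control heart. Its difference was 1.00 (standard error 0.26), uncertain in size because 4 control levels are near background, and 0.14 at its other probe. Cited1, a transcriptional co-regulator, had 0.43, 1.20, 1.14, 1.13 and 0.80 in the nano-TiO2 hearts and 0.63, 0.21, 0.37, 0.34 and 0.04 in the control hearts, a difference of 0.62 (standard error 0.16). In both genes nano-TiO2 replicate 1 lay inside the control range and the other 4 hearts above it.

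The difference at day 1 was then set against that at day 28, where other mice received the same dose and other control hearts were used. No gene passed an adjusted p of 0.05 for the difference between the days (0% of 15503, smallest adjusted p 0.0732), and 2287 passed at unadjusted p under 0.05 (14.8%). Without nano-TiO2 replicate 1 of day 1, 311 genes passed the adjusted threshold. Of the 929 genes higher at day 1, 829 (89.2%) had a negative difference at day 28, and of the 409 lower genes 327 (80.0%) had a positive one, against 63.4% of all genes with opposite signs at the 2 days. The atrial, fat cell, smooth muscle and mesothelium lists, positive at day 1, had medians of -0.97, -1.83, -0.48 and -0.59 at day 28, and the respiratory chain and citrate cycle lists had 0.19 and 0.18. Cnn1 ran from -0.33 to 3.18 (median 2.30) in the nano-TiO2 hearts of day 28 and from 2.83 to 3.84 (median 3.59) in its control hearts, so that all 6 day 28 control hearts lay within or above the range of the 4 high nano-TiO2 hearts of day 1. Clu, which separated the day 1 groups in all hearts, ran from 3.35 to 4.11 (median 3.82) in the nano-TiO2 hearts and from 3.68 to 4.41 (median 4.17) in the control hearts of day 28.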

How the data were processed

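Heart RNA of 22 mice (Cy5) was hybridised against Agilent Universal Mouse Reference RNA (Cy3) on 2-colour Agilent arrays, per the labels. The deposited scanner files hold spot and local background intensity, not subtracted, made with Agilent Feature Extraction 10.7.3.1 per the file headers and 9.5.3.1 per the submitters' processing notes. They also hold the scanner software's log10 ratio of Cy5 over Cy3, background-subtracted and dye-normalized per the file headers. The authors' series table holds values that match a log2 ratio of Cy5 over Cy3 (slope 0.984 to 1.02, r at least 0.992 against the values used here, column medians −0.04 to −0.02); how the authors normalized that deposited log2 table is not given in the sources used here.

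From the intensities, background was corrected with limma 3.58.1 in R 4.3.3 (normexp, offset 50, fitted without spots marked for uneven background), followed by loess within each array. Control spots had weight 0, outlier spots (0.299%) were left out, and spots of a probe were averaged. Probes were matched to 16535 gene symbols through RefSeq from the accessions in the scanner files, 19275 of 41174 probes were kept, and each gene was represented by its brightest kept probe in Cy5. A limma model with 4 group means over the 22 arrays gave differences and p-values, adjusted by Benjamini-Hochberg over 15503 genes, and was tested on simulated data. Each replicate is a mouse, and the number of arrays limits the precision. No spot was saturated.

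Replicate numbers follow the order of the samples in the labels and pair no mice. Slide and scan day were tried as blocks. Other alternatives were background correction, scaling, filter, probe choice, variance model and leaving out each array. The genes named are the 12 with the smallest p on each side, the 8 largest differences on each side at unadjusted p under 0.05, and the 4 members of each list with the smallest p. Exceptions are stated. One item is not reported here and was left out of the lists. The members, the 46 gene lists and the tests were chosen with earlier results of these data known.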

Additional observations from a re-analysis of the deposited data

Results flagged for a closer look

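In 17 of 280 groups of 5 hearts looked at, counting each named gene and list mean in each day 1 group once, 1 heart lay so far from the other 4 that it passed Dixon's limit. Chance flags about 5% of such groups, and genes of a list are not independent of each other. Nano-TiO2 replicate 1 was that heart 6 times, low each time: its levels were 3.21 for Gpx3, −0.25 for Cnn1, 1.09 for Itga8 and 0.93 for Cfd, and its list means were 1.20 for atrial genes and 0.78 for smooth muscle genes. Control replicate 5 was that heart 7 times. It was high for Cfd (5.04), Car3 (1.92), Adipoq (1.98), Cidec (2.01), the alternative complement list (1.38) and the fat cell list (2.64), and low for Cyfip2 (1.47). Nano-TiO2 replicate 4 was low for Sgk1 (−1.12) and high for the B cell list (−0.88), nano-TiO2 replicate 2 was high for the T cell list (−0.33), and control replicate 2 was low for Eln (0.15).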

How the results depend on the processing

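There were 27 alternatives, and some named genes were not measured in every one. Of 101 named genes, 88 kept the direction of their difference in each alternative that measured them and 13 did not. The number past an adjusted p of 0.05 was 0 in the analysis reported, 1 with plain background subtraction, 7 with the scanner's log ratios, 4 with array quality weights and 40 without the arrays on which Sln was not well above background, an alternative chosen after seeing the data. The number at unadjusted p under 0.05 was 478 with median centring and 2330 with no filter on dim probes, where 33269 genes were tested. Leaving out 1 day 1 heart at a time gave 0 to 21 genes past the adjusted threshold, 852 to 1671 at unadjusted p under 0.05 and 0 to 311 for the difference between the days; the 21 and 311 came without nano-TiO2 replicate 1 and the 852 without nano-TiO2 replicate 2.

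With plain background subtraction the differences of Gpx3, Serping1 and Cidea were −0.011, −0.19 and −0.17, and with the scanner's log ratios those of Gpx3 and Cidea were −0.12 and −0.035. With median centring Hspd1, Pdk1, Cyc1, Cox7a1, Uqcrc1, Atp5a1, Sucla2, Cs, Acadm and Pfkm differed by 0.17, 0.020, 0.074, 0.071, 0.057, 0.11, 0.094, 0.16, 0.10 and 0.067, where the median of all genes was 0.17. List medians under median centring were 0.26 for interferon, 0.43 for immediate early, 0.41 for Nrf2, 0.34 for antioxidant, 0.27 for heat shock, 0.11 for hypoxia, 0.34 for coagulation, 0.36 for matrix, 0.29 for sarcomere, 0.10 for respiratory chain, 0.16 for citrate cycle, 0.16 for fatty acid oxidation, 0.17 for cell cycle, 0.28 for heart muscle and 0.18 for T cell genes. With plain background subtraction they were 0.65 for cytokines, 0.71 for glucocorticoid-induced, 0.29 for coagulation, 0.11 for cell cycle and −1.27 for liver genes. With the scanner's log ratios they were 0.39 for acute phase, 0.46 for cytokines, 0.72 for glucocorticoid-induced, −0.090 for antioxidant, 0.27 for matrix, 1.24 for mesothelium, 0.83 for B cell and −1.67 for liver genes. The endothelium list had 0.46 with background parameters fitted on all spots, the respiratory chain −0.32 with scaling between arrays, the cytokines 0.022 with no filter and the fat cell list 0.29 when probes had to be well above background on all 10 arrays. Leaving out 1 day 1 heart at a time turned the sign of 7 of 39 list medians and moved 26, these 7 among them, by over 1.5 times. It gave complement regulator medians of −0.022 (without nano-TiO2 replicate 2) to 0.23 (without nano-TiO2 replicate 1). Apart from the filters, which change the genes tested, the cause was not tested.

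No paired analysis was possible by replicate number, because these numbers follow sample order and pair no mice. Slide, which puts arrays of both day 1 groups together on 4 slides, was used as a fixed block, and that left 0 genes past the adjusted threshold. Probes near background have no reliable order among low levels, and 10660 of 15503 genes were well above background on all 10 arrays.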
